A study of Mus musculus with 8 samples.

Results

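WT-only initiation sites are the places in the mouse genome at which short nascent strand sequencing (SNS-seq) listed a replication initiation site (IS) in wild-type (WT) CH12 cells and in none of the 3 conditions without RIF1. They were selected on the deposited site lists: an autosomal WT site outside chromosomes 10, 15 and 16 was a member if it shared no base with any site of the Rif1KO, Rif1KO_shLacZ and Rif1KO_shMcm6 lists. This gave 1032 members among 21009 WT sites on 16 autosomes (4.91%, Wilson 95% interval 4.63 to 5.21), out of 25828 WT sites in all. Because the calls chose them, their densities in WT and Rif1KO and the ratio between these are given as descriptions, with no test.

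CH12 is a mouse B cell lymphoma line, and every culture had received IL4, CD40 stimulation and TGF beta, a mix that induces class switching. The 8 libraries form 4 groups of 2: WT cells, Rif1-/- cells (Rif1KO), and Rif1-/- cells infected with a lentiviral hairpin against LacZ (Rif1KO_shLacZ, the hairpin control) or against Mcm6, a subunit of the replicative helicase (Rif1KO_shMcm6). The Rif1-/- cells are clonal derivatives of CH12, so loss of RIF1 cannot be told apart from other differences of a clone, and there was no WT group with a hairpin. Each deposited density is 1 value per condition over both replicates, so no spread between cultures can be given; all intervals below cover counting error over sites or reads only. The pooled reads inside sites numbered 3350255 in WT and 3724571 in Rif1KO, but 21071351 and 23602750 in the 2 hairpin conditions, whose lists were also longer (100612 and 115766 sites, against 33600 in Rif1KO). SNS-seq samples a population, so fewer cells using a site and fewer nascent strands recovered per cell cannot be told apart.

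DNA replication begins at sites where the MCM helicase was loaded in G1 and then switched on in S phase, and only a fraction of the loaded helicases fires in any one cell cycle. Initiation sites often lie at promoters, at CpG-rich DNA and beside G-rich runs that can fold into G-quadruplexes, 4-stranded structures built from stacked guanines. RIF1 brings the phosphatase PP1 to chromatin, where it opposes the kinase that activates MCM, and is known as a regulator of when early and late domains replicate.

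Sequences of a few members are shown first as examples, since sequence took no part in the rule. They were picked by WT density or by the Rif1KO over WT ratio. A match to a G-quadruplex motif was defined as at least 4 runs of 3 or more G with 1 to 7 bases between runs, on either strand (runs of C on the printed strand). It is set in capitals below, in the plus strand of mm9 around the site's midpoint, without bases annotated as untranslated region. Of all 21009 WT sites, 59.9% held a match in their central 300 bp. The first 3 sequences are from promoter sites that ranked among the 10 densest WT-only promoters: Dedd (a death effector domain protein of apoptosis signalling), Kdm2a (a histone demethylase that binds unmethylated CpG) and H2-Ob (a chain of the class II antigen presentation modulator H2-O, made in B cells). They show that a CpG-rich window (Kdm2a, 50 CG pairs) and a G-rich window with 1 CG pair (H2-Ob) stood side by side in this class. Of those 10 promoters, Plag1, Cpeb2 and Thoc3 hold no match and the others hold one.

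Dedd, chr1:173259870-173260169: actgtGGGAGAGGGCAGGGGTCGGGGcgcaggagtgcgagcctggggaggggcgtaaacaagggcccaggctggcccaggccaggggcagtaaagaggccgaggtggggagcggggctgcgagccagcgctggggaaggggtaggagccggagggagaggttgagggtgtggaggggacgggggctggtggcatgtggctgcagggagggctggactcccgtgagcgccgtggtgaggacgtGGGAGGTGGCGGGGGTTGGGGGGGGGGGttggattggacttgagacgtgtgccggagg
Kdm2a, chr19:4397196-4397495: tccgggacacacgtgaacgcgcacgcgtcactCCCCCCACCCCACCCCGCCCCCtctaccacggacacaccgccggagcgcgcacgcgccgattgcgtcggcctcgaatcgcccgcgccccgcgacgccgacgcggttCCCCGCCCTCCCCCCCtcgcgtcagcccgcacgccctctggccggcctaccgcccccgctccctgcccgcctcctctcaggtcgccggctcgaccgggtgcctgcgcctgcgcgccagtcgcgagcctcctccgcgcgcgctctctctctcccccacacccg
H2-Ob, chr17:34377516-34377815: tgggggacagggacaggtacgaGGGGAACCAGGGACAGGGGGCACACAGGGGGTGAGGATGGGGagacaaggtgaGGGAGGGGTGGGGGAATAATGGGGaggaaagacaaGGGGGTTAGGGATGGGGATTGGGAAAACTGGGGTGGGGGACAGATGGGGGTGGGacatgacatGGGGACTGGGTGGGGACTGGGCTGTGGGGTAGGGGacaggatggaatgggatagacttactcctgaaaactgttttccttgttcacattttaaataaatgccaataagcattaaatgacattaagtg

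The next 3 are from the 5 promoter sites with the lowest Rif1KO over WT ratio among members of at least median WT density: Nucks1 (a nuclear casein kinase and cyclin-dependent kinase substrate), Ptprf (the receptor tyrosine phosphatase LAR) and Emid1 (an extracellular EMI domain protein). Ptprf and Emid1 have no match to the motif. Of the 5, Ssbp3 (with a match) and Zfp644 (without one) are not printed, since annotated untranslated regions break up their windows.

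Nucks1, chr1:133806840-133807034: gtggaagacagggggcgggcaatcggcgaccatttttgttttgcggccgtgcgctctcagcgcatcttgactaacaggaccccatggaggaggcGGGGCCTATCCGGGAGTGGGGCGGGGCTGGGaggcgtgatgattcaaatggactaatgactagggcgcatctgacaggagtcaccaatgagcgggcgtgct
Ptprf, chr4:117964033-117964332: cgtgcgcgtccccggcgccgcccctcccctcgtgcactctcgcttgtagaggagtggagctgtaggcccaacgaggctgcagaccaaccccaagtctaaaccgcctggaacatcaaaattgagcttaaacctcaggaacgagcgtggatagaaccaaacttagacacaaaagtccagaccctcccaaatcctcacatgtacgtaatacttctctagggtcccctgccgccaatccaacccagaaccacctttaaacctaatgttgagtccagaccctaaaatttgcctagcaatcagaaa
Emid1, chr11:5052333-5052632: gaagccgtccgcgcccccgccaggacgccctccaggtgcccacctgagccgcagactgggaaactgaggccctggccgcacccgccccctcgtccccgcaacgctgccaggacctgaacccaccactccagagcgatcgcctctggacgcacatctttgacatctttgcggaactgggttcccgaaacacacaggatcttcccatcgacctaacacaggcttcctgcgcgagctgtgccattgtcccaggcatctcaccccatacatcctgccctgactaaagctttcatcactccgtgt

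The last pair is from gene bodies, an exon of Pde8b (a cyclic AMP phosphodiesterase) and an intron of Cdca7l (a MYC-interacting nuclear protein). Both are short tandem repeats of G-rich or C-rich units, and neither is CpG-rich.

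Pde8b, chr13:95874022-95874321: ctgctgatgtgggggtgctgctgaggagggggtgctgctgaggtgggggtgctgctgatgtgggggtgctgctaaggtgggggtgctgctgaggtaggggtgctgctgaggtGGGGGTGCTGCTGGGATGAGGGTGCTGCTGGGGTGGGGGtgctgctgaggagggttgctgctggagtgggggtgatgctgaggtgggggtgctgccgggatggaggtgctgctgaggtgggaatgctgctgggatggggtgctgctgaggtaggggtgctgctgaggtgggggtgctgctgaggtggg
Cdca7l, chr12:119100044-119100343: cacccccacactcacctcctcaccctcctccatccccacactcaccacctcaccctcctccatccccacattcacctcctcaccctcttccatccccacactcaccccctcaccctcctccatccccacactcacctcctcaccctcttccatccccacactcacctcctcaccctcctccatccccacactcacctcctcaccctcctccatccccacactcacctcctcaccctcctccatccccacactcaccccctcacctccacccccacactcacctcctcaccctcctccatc

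Members had lower densities than the other WT sites in both conditions. The median member held 68 pooled WT reads and 64 pooled Rif1KO reads, against 84 and 91 at the other 19977 WT sites. On the deposited scale (log2 RPM, reads in the sites of the table scaled to a common total), the median log2 ratio of Rif1KO over WT was -0.22 (interval of the median -0.24 to -0.20), against -0.05 (-0.05 to -0.04) at the other WT sites. The ratio was below 0 at 820 members (79.5%), where 48.6% of all 31414 sites of the table lay below 0. At least 1.5-fold lower density in Rif1KO was seen at 111 members (10.8%, 9.01 to 12.8), beside 1.35% of all sites of the table, and at least 1.5-fold higher density at 0 members, beside 0.945%. Since absence from the Rif1KO list was part of the rule, nothing is read from these shares. The counting error of a single member's log2 ratio had a median of 0.25.

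**Figure D1:**
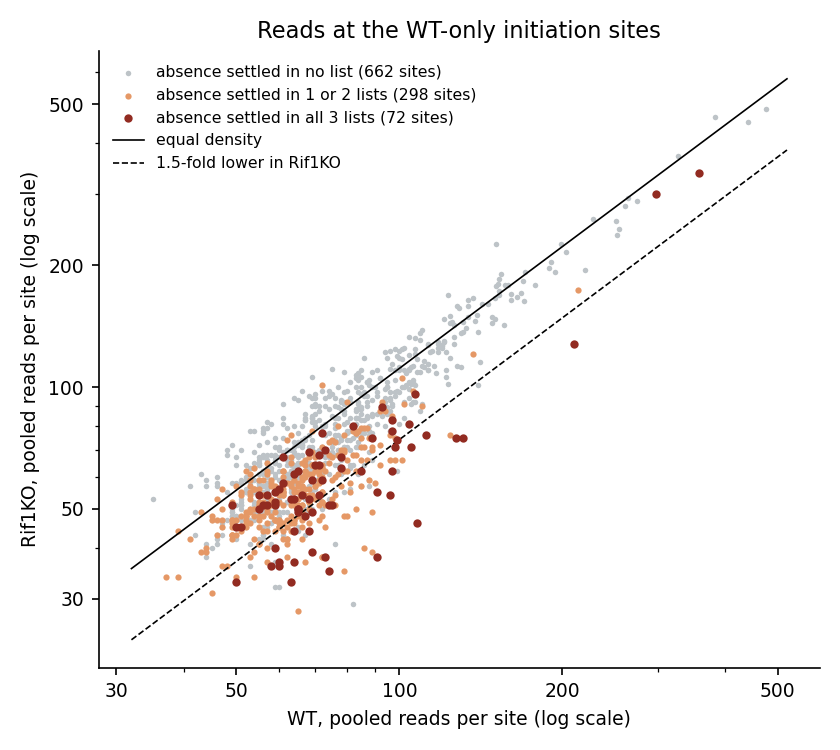
Pooled WT reads (x axis) and pooled Rif1KO reads (y axis), both on log scales, for the 1032 WT-only sites, coloured by the number of RIF1-null lists in which their absence is settled; the solid line marks equal density and the dashed line a 1.5-fold lower density in Rif1KO. The grey sites reach 475 WT reads and lie on both sides of the solid line, with 25 of 662 at or below the dashed line, and the 72 dark red sites all lie below the solid line.

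Members overlapped in Rif1KO reads with the sites that were listed in Rif1KO, and most of them were in the lower part of that distribution. The most Rif1KO reads were 488 at a member and 4427 at a listed site. The 5th percentile of the reads at the sites of the Rif1KO list was 53, the 25th was 67 and the median was 84. Of the members, 767 (74.3%) were at or above the first of these values, 471 (45.6%) at or above the second and 274 (26.6%) at or above the median. The densest member, at the promoter of Dedd (chr1:173259556-173260483, over an exon and an untranslated region of the gene), had 475 WT reads and 488 Rif1KO reads, a log2 ratio of -0.11 with a counting error of 0.09. The second was intergenic, 23.2 kb from the start of Gm5614 (chr9:35112606-35113295), with 440 and 451 reads. Its central 300 bp, not printed above, had a GC content of 36.7% and no match to the motif. The third lay in an exon of Pde8b (chr13:95873635-95874709), with 383 and 466 reads. None of these 3 differed by 1.5-fold between the conditions.

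The other 7 of the 10 densest members were similar. They lay in introns of Sfi1 (a centrosome protein), Lrrfip2 (a Wnt pathway scaffold), Cdca7l and Aspscr1 (a regulator of glucose transporter traffic), in an exon of Sfi1, and at the promoters of Kdm2a and Nek1 (a NIMA-related kinase of cilia and DNA repair). Kdm2a (chr19:4396929-4397762) had 261 WT and 281 Rif1KO reads, and Nek1 (chr8:63471279-63472052) had 254 and 246. The 10 log2 ratios ran from -0.23 to 0.13. The promoter list went on with the Ube2v1 and Tmem189 locus (251 WT and 258 Rif1KO reads), Kpnb1 (importin beta, 189 and 197), Plag1 (a zinc finger transcription factor, 178 and 179), H2-Ob (154 and 190), Cpeb2 (an mRNA-binding protein, 150 and 147), Adnp (a chromatin protein, 141 and 115) and Thoc3 (an mRNA export factor, 131 and 145).

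The 5 lowest ratios among members of at least median WT density were at promoters. Nucks1 (chr1:133806754-133807226) had 82 WT and 29 Rif1KO reads, a log2 ratio of -1.65 with a counting error of 0.31, although its absence was settled in no list by the count described below. Ptprf (chr4:117964004-117964361) had 91 and 38 reads (-1.41), and Ssbp3 (a cofactor of LIM domain transcription factors, chr4:106584141-106584662) had 108 and 46 (-1.38). Zfp644 (a zinc finger protein, chr5:107125215-107125796) had 89 and 39 reads (-1.34), and Emid1 (chr11:5052313-5052653) had 79 and 35 (-1.33). All 5 lay within 1 kb of a protein-coding transcription start site (TSS), and the sites of Nucks1, Ptprf, Ssbp3 and Zfp644 covered one.

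**Figure D2:**
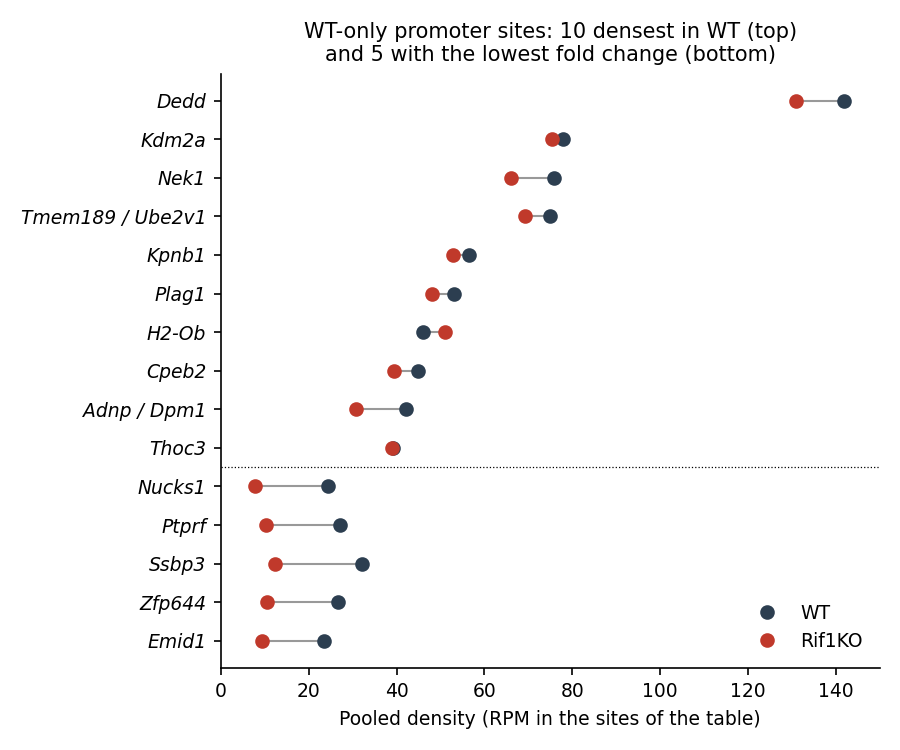
Pooled density in RPM (x axis, starting at 0) in WT (dark) and Rif1KO (red) at the 10 WT-only promoter sites densest in WT (above the dotted line) and at the 5 members with the lowest log2 ratio among those of at least median WT density (below it), with 1 value per condition. The red and dark points of the upper sites lie less than 1.5-fold apart, with Adnp the farthest apart (log2 ratio -0.45) and H2-Ob in the opposite order. The lower 5 sites are separated by more than 2-fold.

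How a site could be missing from a list depended on the cluster filter as well as on the peak call. Per the study's methods, consensus peaks of a condition were kept only if at least 2 of them fell within the condition's own median interpeak distance. The lists showed this as a sharp edge: no site lay farther from its nearest neighbour than 38.3 kb in WT, 32.1 kb in Rif1KO, 11.8 kb in Rif1KO_shLacZ and 10.3 kb in Rif1KO_shMcm6. A lone peak 20 kb from its neighbours would therefore have been kept in WT and removed from both hairpin lists. Absence of a member was called settled for a list if a listed site lay within that list's largest gap, so that a consensus peak at the member would have been kept, or if the running peak numbers of 1 replicate left no unlisted peak between the flanking sites. For the other members the lists do not say whether a peak was called.

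By this count absence was settled in the Rif1KO list for 315 members (30.5%), in Rif1KO_shLacZ for 129 (12.5%) and in Rif1KO_shMcm6 for 124 (12.02%). It was settled in all 3 lists for 72 members (6.98%, 5.58 to 8.70), in 2 for 54, in 1 for 244 and in none for 662 (64.1%, 61.2 to 67.0). The name "WT only" thus holds for the lists, and for 72 sites it holds for the consensus peaks of all 3 RIF1-null conditions. The median distance from a member to the nearest listed site was 41.9 kb in Rif1KO, 25.03 kb in Rif1KO_shLacZ and 23.1 kb in Rif1KO_shMcm6. Members were sparse just below each list's largest gap and frequent just above it: in the 5 kb below and the 5 kb above there were 43 and 149 members for Rif1KO, 27 and 206 for Rif1KO_shLacZ and 33 and 185 for Rif1KO_shMcm6.

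**Figure D3:**
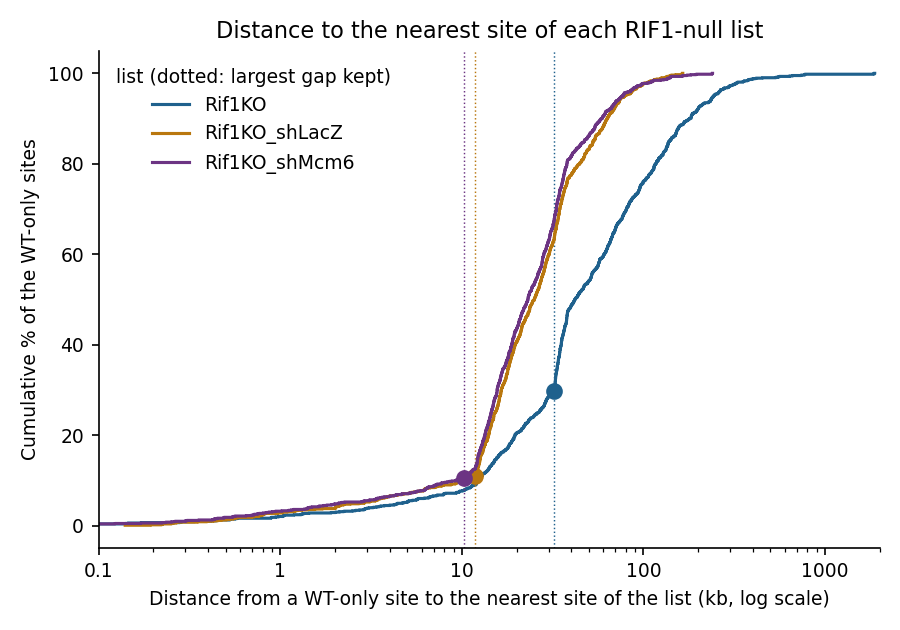
Cumulative percent of the 1032 WT-only sites (y axis) by distance to the nearest site of each RIF1-null list (x axis, kb, log scale); dotted lines and dots mark the largest gap between neighbours that each list holds. Each curve steepens at its own dotted line, at 29.7% of members for Rif1KO, 11.05% for Rif1KO_shLacZ and 10.5% for Rif1KO_shMcm6.

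At the edge of the rule, 28 members lay within 500 bp of a RIF1-null site. The closest was 11 bp away (chr14:70919809-70920232, 97 WT and 85 Rif1KO reads), and the next were 33 bp (77 and 68 reads) and 57 bp (67 and 60 reads) away. On the other side, the WT site with the least overlap that kept it out of the class shared 18 bp (chr17:28937737-28938455, 159 and 134 reads), followed by 93 bp (78 and 59 reads) and 127 bp (103 and 75 reads). The read counts on the 2 sides of the rule overlapped.

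The 72 settled members were described apart from the rest. Their median was 69 WT and 54 Rif1KO reads, with a median log2 ratio of -0.46 (-0.61 to -0.37), and the ratio was below 0 at all 72. At least 1.5-fold lower density was seen at 28 of them (38.9%, 28.5 to 50.4), beside 1.35% of all sites of the table. In the other classes it was seen at 14 of 54 members settled in 2 lists, 44 of 244 settled in 1 and 25 of 662 settled in none (3.78%). The classes rest on the same calls as the rule, so nothing is read from this order. A settled absence says only that no consensus peak was listed there: 43 of the 72 (59.7%) held at least the 53 reads of the 5th percentile of listed Rif1KO sites, and 22 (30.6%) at least the 67 of the 25th. The settled class was small in every sense: it made up 0.343% of the WT sites of these chromosomes.

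Among the settled members, 25 lay at promoters, 4 in exons, 20 in introns and 23 between genes. The 25 promoter sites had a median of 78 WT and 54 Rif1KO reads and a median log2 ratio of -0.72 (-0.96 to -0.57), and none had more reads in Rif1KO than in WT. The 47 settled sites outside promoters had 65 and 55 reads and a ratio of -0.33 (-0.46 to -0.25). Among the other WT sites the median ratio was -0.15 at promoters and -0.04 outside them. Nothing is read from the settled ratios, since the rule used the same reads. Of the 20 settled sites with the lowest ratio, a set chosen after its values were seen, 14 covered or flanked a start site. Besides Ptprf and Ssbp3 they included Rai1 (a chromatin-associated regulator, 74 WT and 35 Rif1KO reads), Uso1 (a Golgi tethering factor, 73 and 38), Slc39a14 (a zinc and manganese transporter, 96 and 54), Sh2b2 (a signalling adaptor, 69 and 39) and Zzz3 (a subunit of the ATAC acetyltransferase complex, 131 and 75). Sfmbt1 (a Polycomb-related protein, 127 and 75), Kcna3 (a lymphocyte potassium channel, 60 and 36), Gphn (gephyrin, 97 and 62) and Fbxo11 (a ubiquitin ligase subunit that targets BCL6, 105 and 71) belonged to the same set. The settled members with the most reads were both Sfi1 sites, with 358 WT and 339 Rif1KO reads at chr11:3052495-3052931 and 298 and 300 at chr11:3045053-3045433, each close to a RIF1-null site (795 and 1029 bp).

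**Figure D4:**
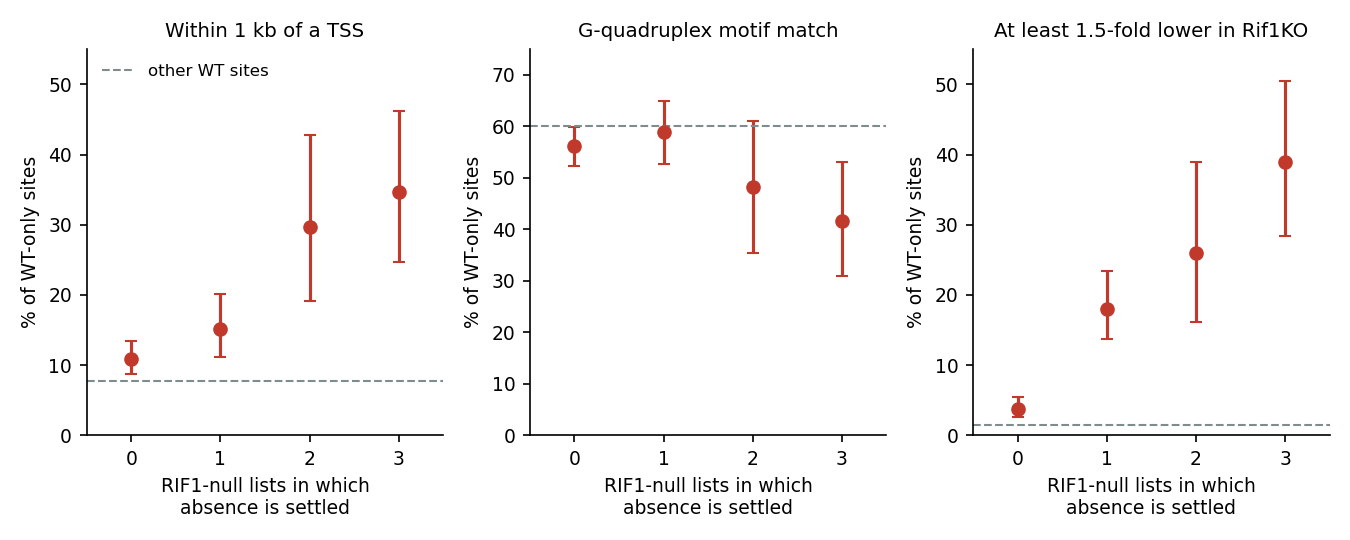
Percent of WT-only sites (y axes, from 0) within 1 kb of a TSS, with a G-quadruplex motif match, and at least 1.5-fold lower in Rif1KO, by the number of RIF1-null lists in which absence is settled (x axes); bars are Wilson 95% intervals and the dashed line is the value of the other WT sites. The promoter share is 10.9% with no settled list and 34.7% with 3, against 7.71% at the other WT sites.

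Gene context took no part in the rule, and it differed between members and the other WT sites. Promoter sites, within 1 kb of a protein-coding TSS, were 150 of the 1032 members (14.5%, 12.5 to 16.8) and 7.71% (7.35 to 8.09) of the other WT sites, a difference of 6.82 percentage points (4.77 to 9.13). Intergenic sites were 45.1% of members (42.05 to 48.1) and 54.2% of the others. Introns held 35.6% of members and 32.7% of the others, and exons 4.84% and 5.40%. Read the other way, 8.87% of promoter sites (7.61 to 10.3) were members, compared with 5.32% of intronic, 4.43% of exonic and 4.12% of intergenic sites. Members were also nearer to genes as a class, with a median of 22.3 kb to the nearest start site against 30.6 kb, and 10 protein-coding genes within 500 kb against 9.

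The promoter share was higher in members on 15 of the 16 chromosomes. The members' part of the WT sites ran from 2.46% on chromosome 14 to 6.41% on chromosome 19. Members were concentrated among weak sites: with the WT sites ranked into 5 classes of WT density, members were 9.46% of the lowest class and 2.14% of the highest. Promoter sites had the opposite order among the other WT sites, so the shares were compared within classes. In the lowest class 8.81% of members and 2.96% of the others were promoter sites, in the second 15.6% and 4.56%, in the third 22.0% and 6.28%, and in the fourth 20.5% and 8.49%, with intervals that did not overlap. In the highest class the shares were 17.05% (10.6 to 26.2) and 16.1% (14.9 to 17.2), with overlapping intervals.

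**Figure D5:**
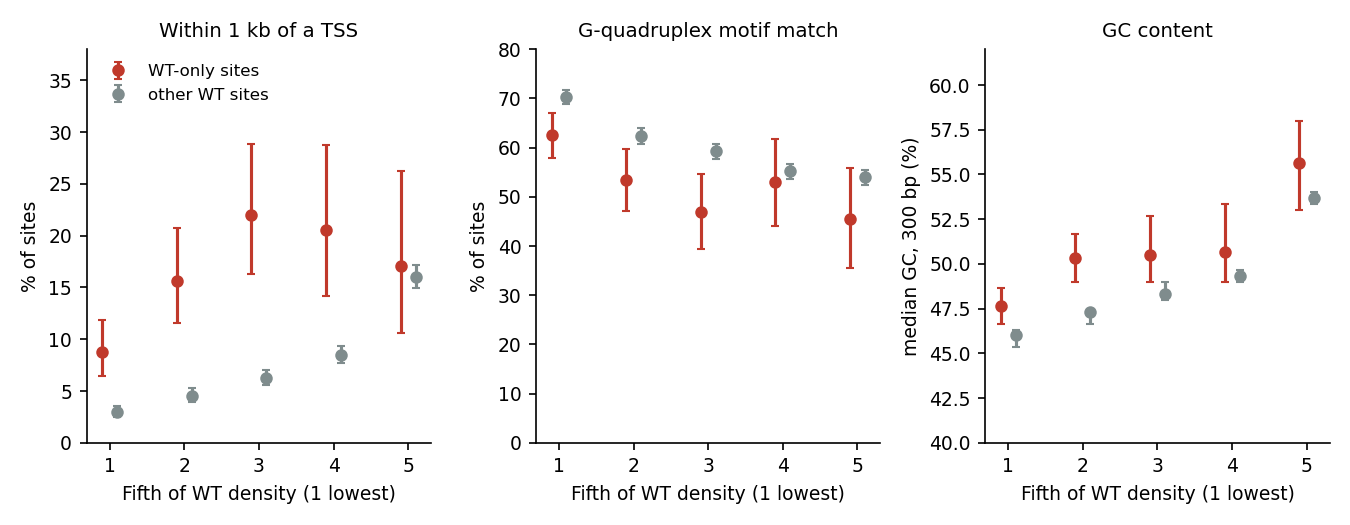
Share of sites within 1 kb of a TSS, share with a G-quadruplex motif match, and median GC content of the central 300 bp (y axes; the GC axis starts at 40%) by class of WT density (x axes, 5 classes from lowest to highest), for WT-only sites (red) and other WT sites (grey), with 95% intervals over sites. Red promoter shares lie clear of grey in the 4 lower classes, and red motif shares lie below grey in all 5, with overlapping intervals in the upper classes.

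CpG-rich sites were more frequent among the members at promoters than among the other promoter sites. CpG content is given as observed over expected, the number of CG pairs against the number that the base composition would give, and a value of at least 0.6 was called CpG-rich. At promoters, 108 of 150 members (72.0%, 64.3 to 78.6) were CpG-rich, against 43.2% (40.8 to 45.7) of the other promoter sites, and the median GC content was 67.7% against 59.7%. Among CpG-rich promoter sites 13.95% (11.7 to 16.6) were members, and among CpG-poor promoter sites 4.58% (3.41 to 6.13). The site covered the TSS itself at 80 of 150 member promoters (53.3%) and at 38.9% of the others. The 150 sites belonged to 147 genes, of which 12 had another WT promoter site that was shared.

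CpG-rich promoter sites also had the lower ratios, in both classes. The median log2 ratio was -0.50 (-0.57 to -0.42) at CpG-rich and -0.27 (-0.34 to -0.18) at CpG-poor member promoters, compared with -0.21 and -0.12 at the other promoter sites. Of the 111 members at least 1.5-fold lower in Rif1KO, 46 were promoter sites (30.7% of promoter members), while 35 were intergenic (7.53%), 25 intronic (6.81%) and 5 of the 50 exonic members. Among the other WT sites the shares were 5.26% at promoters, 0.998% between genes, 1.38% in introns and 2.69% in exons. Over all sites of the table the share was 1.35%. The calls that made the classes rest on the same reads, so nothing is read from the members' ratios and shares. In the settled class 23 of 25 promoter sites were CpG-rich, with a median GC content of 74.3%.

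GC content over all contexts differed little, and more within classes of WT density. Across the whole site the median was 49.5% in members and 48.9% in the other WT sites, a difference of 0.64 percentage points (0.09 to 1.12), and outside promoters the difference was 0.17 (-0.36 to 0.58). The GC content of the central 300 bp was higher in members on 10 of the 16 chromosomes. Within the 5 classes of WT density it was higher in members in each, with medians of 47.7% against 46.0% in the lowest class, 50.3% against 47.3%, 50.5% against 48.3%, 50.7% against 49.3%, and 55.7% against 53.7% in the highest. The intervals were apart in the lowest pair of classes and met or overlapped in the other 3. The settled class differed more, by 5.21 points (1.86 to 9.31). Across the whole site its median was 73.4% at the 25 promoter sites and 49.6% (47.4 to 52.6) at the 47 sites outside promoters.

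G-quadruplex motif matches were less frequent in members as a whole, by an amount that depended on spacing and on the definition. A match lay in the central 300 bp of 572 members (55.4%, 52.4 to 58.4) and of 60.2% (59.5 to 60.9) of the other WT sites, a difference of -4.74 percentage points (-7.86 to -1.66), and the share was lower in members on 14 of 16 chromosomes. With up to 12 bases allowed between runs the difference was -2.57 (-5.52 to 0.24), an interval that includes 0, and over the whole site it was -9.42 (-12.3 to -6.66). By distance to the nearest WT site the shares of members and others were 47.9% (39.02 to 56.8) and 61.3% within 10 kb, 53.7% and 59.7% at 10 to 20 kb, 55.9% and 58.9% at 20 to 30 kb, and 58.4% and 58.7% at 30 to 40 kb. The intervals were apart only within 10 kb. Outside promoters the shares were 52.6% (49.3 to 55.9) and 59.6% (58.9 to 60.3). Between genes they were 51.4% and 59.7%, and in introns 53.4% and 59.1%. At promoters alone the order was turned, with 72.0% (64.3 to 78.6) of members and 67.2% (64.8 to 69.5) of the others, and the intervals overlapped. In the 72 settled members the share was 41.7% (31.0 to 53.2), with 13 matches at the 25 promoters and 17 at the 47 other sites.

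As a class, members were isolated among WT sites and lay beside one another, but the 72 settled members did neither. The median distance to the nearest WT site was 25.1 kb for members and 11.98 kb for the other WT sites. That distance was 32287 bp for the members settled in no list and 8050 bp (5088 to 10231) for the 72 settled in all 3. For 260 members (25.2%, 22.6 to 27.9) the nearest WT site was itself a member, whereas members were 4.91% of WT sites. Of the 260, 245 were settled in no list (37.0% of that class). The counts were 11 (4.51%) for members settled in 1 list, 2 (3.70%) in 2 and 2 (2.78%) in 3. Distance to listed sites enters the definition of settled, so nothing is read from this split. In genome order, 701 members stood alone, 131 pairs of neighbours were both members, and 23 runs held 3 members, the longest seen. The 3 shortest of these runs spanned 50.5 kb at Atp2b2 (a plasma membrane calcium pump; 57, 88 and 134 WT reads and 60, 57 and 159 Rif1KO reads), 52.0 kb near Zfhx3 (a homeobox transcription factor; 51, 110 and 64 against 52, 138 and 68) and 54.6 kb from Zmym4 to Sfpq (an RNA-binding paraspeckle protein; 124, 61 and 103 against 118, 43 and 108). A run at Mme, the gene of the B cell progenitor antigen CD10, spanned 56.8 kb, with 57, 56 and 74 WT reads and 82, 50 and 95 Rif1KO reads. One at Dhrs7b and Tmem11 spanned 61.2 kb. The runs at Atp2b2, Zfhx3 and Mme held sites on both sides of equal density, and the other 2 lay below it throughout.

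The share of members depended on spacing, and the promoter excess was present at each spacing. Members were 1.35% of WT sites with a WT neighbour within 10 kb, 4.41% at 10 to 20 kb, 5.87% at 20 to 30 kb and 18.1% (16.6 to 19.7) at 30 to 40 kb. The last class holds sites kept in WT whose spacing is near or above the largest gap of the Rif1KO list. The median log2 ratio of its members was -0.09, compared with -0.39 for members with a neighbour within 10 kb. Why these ratios differ was not tested, and the rule used the same reads. The promoter share of members was above that of the other WT sites in each class: 30.8% against 8.38% within 10 kb, 12.2% against 7.83%, 18.3% against 7.06%, and 9.38% against 5.63% at 30 to 40 kb.

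The farthest members were deep inside regions without RIF1-null sites. A pair in an intron of Olfr56 (an olfactory receptor gene) at chr11:48910881-48911288 and chr11:48913789-48914167 lay 146 and 143 kb from the nearest such site, with 64 and 90 WT reads and 58 and 100 Rif1KO reads. A second pair lay between genes, 77.8 and 85.2 kb from the start of Chsy1 (a chondroitin synthase), at chr7:73332187-73332615 (121 and 130 reads) and chr7:73339568-73339941 (60 and 32 reads). The last, in an intron of Apba2 (a neuronal adaptor protein), had 72 and 69 reads. Only the second Chsy1 site was more than 1.5-fold lower in Rif1KO.

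Members were set beside the WT sites missing from other combinations of lists. The 2593 WT sites absent from Rif1KO and present in both hairpin lists had a median log2 ratio of -0.20, and 7.17% of them were at least 1.5-fold lower. The 2268 sites present in Rif1KO and absent from both hairpin lists had a ratio of -0.03, with 0.794% at least 1.5-fold lower. Promoter sites were 7.33% of the first group (6.39 to 8.39), 9.52% of the second (8.38 to 10.8) and 7.11% (6.68 to 7.57) of the 12695 sites present in all 4 lists, against 14.5% of members. The WT sites that shared absence from Rif1KO and from 1 hairpin list were close to the members: 13.1% of the 321 sites present only in Rif1KO_shMcm6 and 14.4% of the 341 present only in Rif1KO_shLacZ were promoter sites. Motif shares were 61.01% in the sites absent from Rif1KO alone, 57.01% in those absent from both hairpin lists and 61.2% in those present in all lists, and 55.8% and 54.5% in the sites present only in Rif1KO_shMcm6 and only in Rif1KO_shLacZ beside WT. In the sites missing only from Rif1KO_shLacZ the share was 55.7%, and in those missing only from Rif1KO_shMcm6 59.2%, against 55.4% of members.

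The hairpin conditions gave no density at the members themselves, since 0 members overlapped a site of that table. At the 4384 hairpin-table sites within 50 kb of a member, the median log2 ratio of Rif1KO_shMcm6 over Rif1KO_shLacZ was -0.06 (-0.07 to -0.04), against -0.04 at the 55961 sites within 50 kb of another WT site and -0.01 at all 108860 sites of the 16 autosomes. Many sites counted for both classes. The 660 sites near members and near no other WT site had a ratio of -0.01 (-0.04 to 0.02).

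Members were looked for in 6 lists of genes with a role in B cells or replication, each gene extended by 1 kb. Of 4786 protein-coding genes with a WT site, 544 (11.4%, 10.5 to 12.3) held a member, which is the background for the lists. B cell transcription factors had members in 4 of 10 genes with a WT site. These were Foxp1 (49 and 56 WT reads, 50 and 48 Rif1KO reads at 2 intronic sites), Ikzf1 (70 and 80 reads at the promoter, 109 and 87 in an intron), Irf4 (87 WT and 103 Rif1KO reads, intronic) and Nfkb2 (76 and 60, promoter). B cell receptor signalling and surface genes had members in 0 of 13, and class switch recombination and repair genes in 1 of 9, the nuclease gene Mre11a (64 and 69 reads). With at most 24 genes in a list, these shares have wide intervals: 16.8 to 68.7% for the transcription factors and 0 to 22.8% for the receptor genes.

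Replication licensing and firing genes had members in 3 of 11. Clspn, the checkpoint adaptor claspin, had 113 WT and 127 Rif1KO reads in an intron. Topbp1, which activates the ATR kinase and helps load replication factors, had 125 and 145, and Lig1, the ligase of Okazaki fragments, had 105 and 112 at its promoter. Cell cycle and survival genes had members in 2 of 10, Ccnd1 (cyclin D1, 76 and 74 reads at the promoter) and Cdk6 (54 and 59 reads). Large genes linked to fragile sites had members in 4 of 24: Lrp1b (109 and 136 reads), Dab1 (117 and 108), Dlg2 (130 and 136) and Cdh13 (93 and 92), all intronic. None of the 16 member sites in these lists was 1.5-fold lower in Rif1KO, beside 10.8% of all members, and the lowest log2 ratio was -0.49, at Nfkb2. Absence was settled in all 3 RIF1-null lists for none of them, beside 6.98% of all members; 16 sites are too few to set these counts apart from those shares.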

How the data were processed

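SNS-seq libraries were made by size selection of denatured DNA, lambda exonuclease digestion and random-primed second-strand synthesis, from 2 replicates per condition. Per the study's methods, reads were trimmed (Trim Galore 0.6.4, cutadapt 2.6), aligned uniquely to mm9 (Bowtie 1.2.3), called per replicate without an input library (MACS), intersected into consensus peaks and filtered for clusters. Unique alignment leaves out reads that match several places equally well, and the lack of an input leaves copy number in the densities. The deposited densities are log2 RPM, 1 value per condition, scaled by the authors to reads in the sites of each table; every value was a whole multiple of 1 read, within 5.5e-12 of a read, which gave the pooled reads. A fold change was recomputed from these values; the deposited categories of change were not used.

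Sites were called shared with at least 1 bp of overlap. GC content, CpG and motifs were read from mm9 (NCBIM37) and gene context from GENCODE vM1. Intervals are Wilson (shares) or binomial order-statistic (medians) at 95%, and those of differences combine both arms; sites are not replicate cultures. No test was run, since 1 pooled value per condition leaves none. Named sites were the 10 densest members, the 10 densest at promoters, the 5 of lowest ratio at or above median WT density, the 5 farthest from RIF1-null sites, the 5 shortest of the longest runs and those in the gene lists; settled sites were named from the 20 of lowest ratio, a set chosen after its values were seen. The members, gene lists and rules were chosen with earlier results of these data known. Analyses used Python 3.11.15, numpy 2.4.6, pandas 2.3.3 and scipy 1.17.1, and were tested on simulated data. One named site is not reported here.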

Additional observations from a re-analysis of the deposited data

How the results depend on the processing

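Of 38 alternatives to 9 results, 21 stayed within the 95% interval of the reported value, 17 moved past it and 0 changed direction. The share of WT sites that were members, 4.91%, was 5.65% on all autosomes. It was 15.7% without the Rif1KO list, 6.54% without the Rif1KO_shLacZ list and 6.44% without the Rif1KO_shMcm6 list. The median log2 ratio was -0.17 without the 25% of sites of lowest mean density, where the share at least 1.5-fold lower was 7.77%. That share was 1.65% at 2-fold and 34.9% at a log2 change of 0.32. The promoter difference was 9.78 percentage points without the 25% of sites of lowest WT density, and the motif difference was -9.42 over the whole site. With the median distance between neighbouring Rif1KO sites, 20.8% of members had a Rif1KO site in reach, against 29.7%. Why these values moved was not tested.

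Alternatives chosen after seeing the data counted settled members alone: their share of WT sites was 0.343%, the median log2 ratio -0.46, the share at least 1.5-fold lower 38.9%, and the differences from other WT sites 5.21 (GC content), 27.0 (promoters) and -18.5 (motif) percentage points. The GC and motif differences outside promoters, also added, stayed within the intervals. No paired analysis was possible because the deposited values pool both replicates, so no replicate could be left out either. The lists carry no peak score, so no stricter threshold was tried. Depth limits single sites: at the median of 68 WT reads, 2 counting errors of 0.25 come close to the 1.5-fold threshold of 0.585 on the log2 scale.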

Other observations

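The mirror class, sites selected on presence in the Rif1KO list and absence from the other 3, held 1727 of 27145 Rif1KO sites on the same chromosomes. Promoter sites were 3.82% of it (3.01 to 4.83) and 6.30% (6.01 to 6.60) of the other Rif1KO sites, whereas the WT-only class had the higher promoter share of its list (14.5% against 7.71%). Its median GC content in the central 300 bp was 43.3%, against 46.7% at the other Rif1KO sites, and its sites had a median of 6 protein-coding genes within 500 kb, against 8. A G-quadruplex motif match was found in 44.9% (42.6 to 47.3) of its sites and in 49.3% of the other Rif1KO sites, so that the share was lower than in the rest of the list for both classes. Its median was 55 WT and 68 Rif1KO reads. At least 1.5-fold higher density in Rif1KO was seen at 3.07% of its sites, beside 0.960% of the other Rif1KO sites and 0.945% of all sites of the table, and the selection used the same libraries.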
